A study of Mus musculus with 12 samples.

Results

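The subject is a set of 10 genes of the hypoxia response and of glycolysis in mouse keratinocytes: Hif1a, Egln3, Wsb1, Ndufa4l2, Pdk1, Bnip3, Hk2, Pgk1, Ldha and Vegfa. They were chosen by gene symbol and were 10 of the 54532 genes in the deposited table. All 10 were among the 13571 genes with enough counts to be tested. The list was drawn up with the cortical-against-total and wounded-against-unwounded results of these libraries already known, and which value led to which gene was not recorded. The 10 genes' own values are therefore a description, with the standard error of each difference and no p-value. Tests are reported for other genes of the same pathways. Those genes were listed from general knowledge, but also with earlier results of these data known. Their share of called genes beside that of all genes is therefore a description too.

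The libraries came from cultured keratinocytes, all of genotype WT DP-BirA(1-584), in which the first part of desmoplakin, a desmosome protein, is fused to the biotin ligase BirA. Cells of all groups received 2 µg/mL doxycycline to express the fusion protein, 1.2 µM calcium (the unit as labelled) to differentiate, and biotin for 16 h. Cultures were wounded or not, and neutravidin then split the material of translating gradient fractions into a bound part, the cortical fraction, and what was left after depletion, the total fraction. With 2 treatments and 2 fractions there were 4 groups, each of 3 libraries. The labels call the libraries of a group biological replicates and do not say what drives the transgene or whether the line is 1 clone.

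HIF is a transcription factor whose alpha subunit, encoded by Hif1a, is hydroxylated by the EGLN oxygen sensors and then destroyed through the VHL ubiquitin ligase. When oxygen is low the subunit persists, pairs with ARNT and binds the core sequence ACGTG or GCGTG near its targets, many of which encode glycolytic enzymes, mitochondrial regulators and secreted factors. The epidermis has no vessels of its own and relies to a large extent on glycolysis.

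Library totals ran from 8980013 to 23457548 counts. Wounded total replicate 1 stood apart: counts were found for 13117 genes there and for 14393 to 16867 in the other 11 libraries, and 41.2% of the genes expected at 10 to 20 counts had 0. That share was 0.607% to 5.68% in the unwounded total libraries, 11.4% and 11.5% in the other wounded total ones, 4.40% to 24.7% in the unwounded cortical and 17.3% to 23.7% in the wounded cortical ones. Protein-coding genes of mitochondrial DNA took 6.02% to 9.08% of the counts in the unwounded total and 2.56% to 3.51% in the wounded total group, and 3.79% to 3.94% against 2.40% to 2.47% in the cortical groups. The mitochondrial share in both fractions, and the share at 0 in the total fraction, moved with wounding, and their part in the wound results was not tested. All 10 keratinocyte markers checked were tested, with a summed level of 9365 to 19409 CPM (counts scaled to library size after TMM normalisation). The sum was 9365 to 10638 CPM in the unwounded total and 15648 to 18454 CPM in the wounded total group. In the cortical groups it was 13672 to 13813 CPM without and 19018 to 19409 CPM with wounding. Krt5 and Krt14 reached 7637 and 10888 CPM, whereas Krt1 and Krt10 reached at most 1.84 and 32.7 CPM. Ndufa4l2 is also known from vessel mural cells, whose markers Rgs5 and Kcnj8 had 0 counts in all libraries. Pdgfrb, Cspg4, Acta2 and Abcc9 reached at most 0.637 CPM. Of the 7 mural markers, 1 was tested (Notch3, which keratinocytes also express). The list summed to 40.0 to 50.3 CPM in the unwounded total and 30.7 to 41.4 CPM in the wounded total group. Its cortical sums were higher, with 60.7 to 63.0 CPM without and 54.1 to 58.5 CPM with wounding. Of the 5 leukocyte markers, Cd68 was tested, while Adgre1 and Cd207 had 0 counts. The leukocyte list summed to 20.9 to 24.9 CPM in the unwounded total and 43.2 to 58.7 CPM in the wounded total group. Its cortical sums were 17.8 to 20.9 CPM without and 32.9 to 38.6 CPM with wounding. The part of Cd68 and of the keratinocyte markers in the wound results was not tested. In bulk samples such as these, fewer cells of a type and less RNA per cell cannot be told apart.

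The 250 bases before the RefSeq start of 9 of the 10 genes were searched for ACGTG and GCGTG on both strands (build GRCm38.p6, the most upstream start of each gene). CACGTG, its own reverse complement, counts as a match on each strand. Ndufa4l2 had no entry. Of the 9 genes, 8 held at least 1 match and 7 held ACGTG, and among 27025 genes with an entry 38.6% held at least 1 match and 16.5% held ACGTG. Among 69 other genes of the pathway lists with an entry these shares were 69.6% and 33.3%. The 4 promoters shown belong to the 3 genes that were lower in the wounded total fraction and to Ldha, the most abundant of the set per length. They are written in the direction of the gene with the matches in capitals, from chr11:79254696-79254945 (minus strand), chr12:73907617-73907866 (plus strand), chr12:54203875-54204124 (minus strand) and chr7:46845554-46845803 (plus strand).
Wsb1: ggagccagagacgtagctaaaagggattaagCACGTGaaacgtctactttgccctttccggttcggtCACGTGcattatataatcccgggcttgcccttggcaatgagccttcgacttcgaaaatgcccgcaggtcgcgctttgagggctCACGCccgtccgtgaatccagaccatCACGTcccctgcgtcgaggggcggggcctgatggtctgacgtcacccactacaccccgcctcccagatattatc
Hif1a: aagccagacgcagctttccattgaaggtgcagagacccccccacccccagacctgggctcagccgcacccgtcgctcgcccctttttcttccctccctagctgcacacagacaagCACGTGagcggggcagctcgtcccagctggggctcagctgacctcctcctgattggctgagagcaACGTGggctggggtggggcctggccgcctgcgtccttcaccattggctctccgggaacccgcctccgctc
Egln3: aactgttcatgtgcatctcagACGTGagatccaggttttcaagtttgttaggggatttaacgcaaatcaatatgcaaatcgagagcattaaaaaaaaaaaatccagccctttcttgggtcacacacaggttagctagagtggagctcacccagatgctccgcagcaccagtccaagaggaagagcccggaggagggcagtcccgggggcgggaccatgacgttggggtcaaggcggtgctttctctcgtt
Ldha: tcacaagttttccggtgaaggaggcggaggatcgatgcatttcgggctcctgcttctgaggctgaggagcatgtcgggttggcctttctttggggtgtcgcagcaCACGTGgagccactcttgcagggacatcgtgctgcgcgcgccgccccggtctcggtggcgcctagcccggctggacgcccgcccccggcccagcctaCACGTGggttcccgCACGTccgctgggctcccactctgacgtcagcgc
Wsb1 held 6 matches, 5 of them ACGTG, and Ldha held 5. Hif1a held 3 and Egln3 held 1. Bnip3 held 5 (2 ACGTG), Pgk1 and Hk2 held 2 each, and Pdk1 held 1 GCGTG. Vegfa held 0, which says only that these letters are not in this window. For Hif1a, Ldha and Bnip3 the RefSeq start lies inside the span that the deposited table gives for the gene. A match is a description of the sequence and not of binding.

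Compared per gene length with the deposited FPKM values (fragments per kilobase of gene, scaled to library size), the 10 genes covered a wide range of levels. Ldha had a mean of 516 FPKM over the 12 libraries (range 454 to 575) and Pgk1 had 353 (range 283 to 496). Egln3 followed at 52.5 FPKM (range 44.8 to 64), then Ndufa4l2 at 21.9 (range 4.94 to 49.5) and Hif1a at 6.84 (range 4.62 to 9.16). These means put Ldha and Pgk1 far above Hif1a. Wsb1 (4.03 FPKM, range 1.45 to 6.11), Bnip3 (3.58, range 1.76 to 6.73) and Pdk1 (3.5, range 2.82 to 4.44) overlapped one another, as did Hk2 (2.11, range 1.4 to 3.18) and Vegfa (2.05, range 1.54 to 2.61). Ranges over the 12 libraries of all neighbours in this order overlapped except those of Pgk1 and Egln3. All further levels are in CPM, on which 1 gene is compared between groups.

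**Figure D1:**
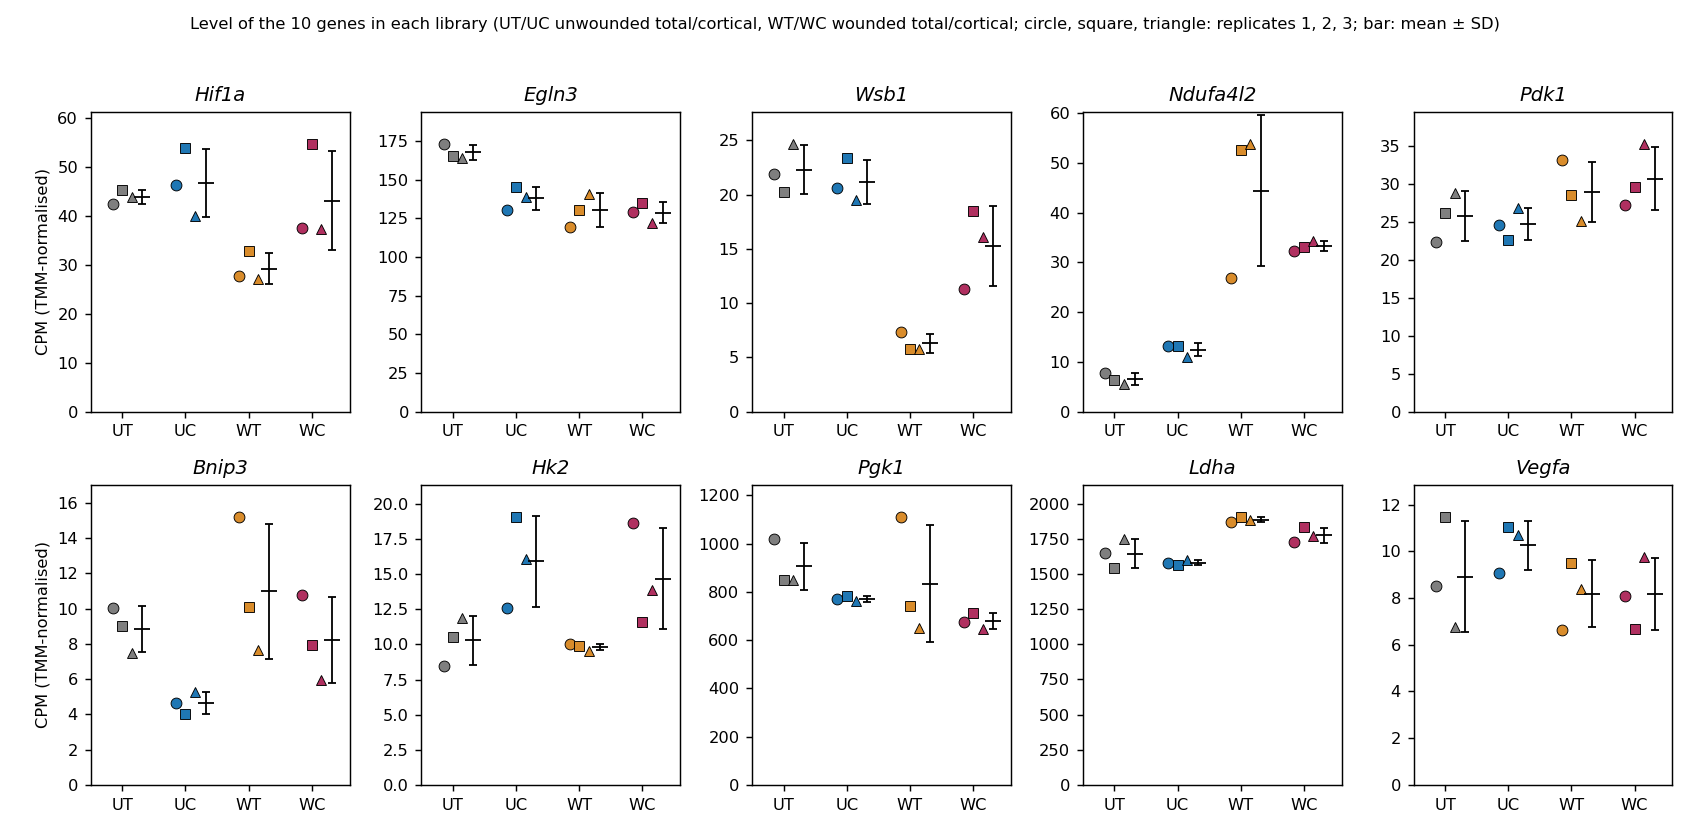
Level of each of the 10 genes in CPM (vertical axes from 0, a scale per gene) in the 3 libraries of the unwounded total (UT), unwounded cortical (UC), wounded total (WT) and wounded cortical (WC) groups, with the mean and SD. Ndufa4l2 lies higher in all 6 wounded than in all 6 unwounded libraries, Wsb1 is lowest in the 3 wounded total libraries, and wounded total replicate 1 (circle) departs from its group for Ndufa4l2, Pgk1 and Bnip3.

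Ndufa4l2 (ENSMUSG00000040280, chromosome 10, 127514967 to 127517154, plus strand) encodes a paralog of the respiratory chain subunit NDUFA4 and is a known HIF target that restrains mitochondrial respiration. Its level in replicates 1, 2 and 3 was 7.72, 6.38 and 5.48 CPM in unwounded total libraries and 13.2, 13.1 and 10.9 CPM in unwounded cortical ones. After wounding it had 26.9, 52.5 and 53.8 CPM in the total and 32.3, 33.1 and 34.2 CPM in the cortical group. Every wounded library was above every unwounded library, and the 3 wounded cortical libraries were close together while the wounded total libraries were spread. Without wounding the cortical libraries were all above the total ones, and after wounding 2 of the 3 total libraries were above all cortical ones. Its exons share 32 bases with Shmt2 on the opposite strand, whose level was 144 ± 26.1 CPM in the unwounded total and 169 ± 6.83 CPM in the wounded total group (SD, n = 3).

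Among the genes of HIF regulation, Hif1a (ENSMUSG00000021109, chromosome 12, 73901375 to 73947530, plus strand) had 42.5, 45.2 and 43.8 CPM in the unwounded total and 27.7, 32.8 and 27 CPM in the wounded total group. Its cortical values were 46.4, 53.8 and 40 CPM without and 37.4, 54.7 and 37.2 CPM with wounding. The wounded total libraries were therefore below all 9 others, and the cortical groups overlapped each other. Its exons share 330 bases with Gm15283 on the other strand, which had a mean of 51.7 counts over the 12 libraries against 731.3 for Hif1a.

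Egln3 (ENSMUSG00000035105, chromosome 12, 54178981 to 54203860, minus strand), an oxygen-sensing hydroxylase that marks the HIF alpha subunit for destruction, had 173, 165 and 164 CPM in the unwounded total group. It had 119, 130.3 and 141 CPM in the wounded total, 130.2, 145 and 139 CPM in the unwounded cortical and 129, 135 and 122 CPM in the wounded cortical group. The 3 unwounded total libraries stood above all 9 others, which overlapped. Wsb1 (ENSMUSG00000017677, chromosome 11, 79239372 to 79254671, minus strand), a substrate receptor of a ubiquitin ligase and a HIF target, had 21.9, 20.2 and 24.7 CPM in the unwounded total and 20.6, 23.4 and 19.5 CPM in the unwounded cortical group. After wounding it had 7.3, 5.78 and 5.76 CPM in the total and 11.3, 18.5 and 16.1 CPM in the cortical group. Both wounded groups were below all unwounded libraries, and the wounded total libraries were below the wounded cortical ones.

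Of the glycolytic members, Hk2 (ENSMUSG00000000628, chromosome 6, 82725025 to 82774454, minus strand), the inducible hexokinase, had 8.47, 10.5 and 11.9 CPM in the unwounded total and 10, 9.88 and 9.56 CPM in the wounded total group. Its cortical values were 12.6, 19.1 and 16.1 CPM without and 18.6, 11.6 and 13.9 CPM with wounding. The cortical libraries lay above the total ones in each treatment, and the treatments overlapped within each fraction.

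Pgk1 (ENSMUSG00000062070, chromosome X, 106187100 to 106203699, plus strand), the first ATP-yielding enzyme of glycolysis, had 1020.0, 848 and 850.3 CPM in the unwounded total and 769, 785 and 762 CPM in the unwounded cortical group. It had 1109.8, 742 and 652 CPM in the wounded total and 674, 713 and 648 CPM in the wounded cortical group. The highest of the 12 values was that of wounded total replicate 1, and the wounded cortical libraries were all below the unwounded cortical ones. Ldha (ENSMUSG00000063229, chromosome 7, 46841475 to 46855627, plus strand), which turns pyruvate into lactate, had 1647, 1541 and 1747 CPM in the unwounded total and 1869, 1905 and 1887 CPM in the wounded total group, and 1581, 1562 and 1599 CPM against 1728, 1835 and 1768 CPM in the cortical groups. Wounded libraries were above unwounded ones within both fractions. Pseudogene copies of Ldha named in the table held 0.105% as many counts as Ldha, and those of Pgk1 held 0.

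Pdk1 (ENSMUSG00000006494, chromosome 2, 71873224 to 71903858, plus strand), a kinase that restrains pyruvate dehydrogenase, had 22.3, 26.1 and 28.8 CPM in the unwounded total and 33.1, 28.5 and 25.1 CPM in the wounded total group. It had 24.5, 22.6 and 26.8 CPM in the unwounded cortical and 27.1, 29.5 and 35.2 CPM in the wounded cortical group. The total groups overlapped, and the wounded cortical libraries were above the unwounded cortical ones. Bnip3 (ENSMUSG00000078566, chromosome 7, 138890836 to 138909519, minus strand), a receptor for the removal of mitochondria, had 10, 9.03 and 7.48 CPM in the unwounded total and 4.65, 4.01 and 5.29 CPM in the unwounded cortical group. It had 15.2, 10.1 and 7.66 CPM in the wounded total and 10.8, 7.92 and 5.93 CPM in the wounded cortical group. The unwounded cortical libraries were below all 9 others. Vegfa (ENSMUSG00000023951, chromosome 17, 46016993 to 46032369, minus strand), the secreted growth factor of blood vessels, had 8.51, 11.5 and 6.77 CPM in the unwounded total and 9.07, 11 and 10.7 CPM in the unwounded cortical group. It had 6.65, 9.49 and 8.4 CPM in the wounded total and 8.11, 6.67 and 9.75 CPM in the wounded cortical group, and all 4 groups overlapped.

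The comparison of wounded with unwounded cells in the total fraction asked how translated mRNAs changed with wounding. The log2 fold change of Ndufa4l2 was 2.76 (SE 0.23), a fold of 6.77, the largest of the 10 in size, and it was 3.02 (SE 0.16) without wounded total replicate 1. Wsb1 was lower by a fold of 3.54, with a log2 fold change of -1.83 (SE 0.20). Hif1a followed with -0.59 (SE 0.16) and Egln3 with -0.36 (SE 0.10). The other members were nearer to 0: Ldha had 0.20 (SE 0.093), Pdk1 0.17 (SE 0.15), Hk2 -0.064 (SE 0.22) and Vegfa -0.12 (SE 0.25). Without wounded total replicate 1, Pdk1 had 0.061 (SE 0.16) and Vegfa 0.0047 (SE 0.26). Bnip3 had 0.31 (SE 0.28) and Pgk1 -0.12 (SE 0.15), and without wounded total replicate 1 these were 0.0036 (SE 0.28) and -0.38 (SE 0.10). As a description, 4 of the 10 members (Ndufa4l2 higher, Wsb1, Hif1a and Egln3 lower) passed the threshold of the fit over all genes, beside 15.6% of all 13571 genes (8.39% higher, 7.20% lower). Leaving that library out, 5 of 10 did, beside 24.9% of 14073. Groups did not overlap for 2 members that were higher and 3 that were lower, beside 14.5% and 17.6% of all genes, or 32.1% in all. The median log2 fold change was -0.091 over the 10 genes and -0.026 over all genes.

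Among the other 89 genes of the 4 pathway lists, 75 were tested, and 17 rose and 3 fell in the wounded total fraction (edgeR quasi-likelihood test, adjusted p under 0.05, 26.7% of the 75 against 15.6% of all genes). The share of all genes depends on abundance: with only the 10386 genes with a mean of 50 counts or more, it was 22.1%. The median log2 fold change of the 75 was 0.22. Leaving out wounded total replicate 1, 29 rose and 5 fell. With library size alone as the scale 10 rose and 4 fell, and with the gene length trend removed 28 rose and 3 fell. Of the 14 genes that were not tested, 8 had 0 counts in every library (Ldhb, Pdk4, Plod2, Lox, Stc2, Ppp1r3c, Pygl and Trf), where 3 counts, the limit that a count of 0 allows, equal 0.117 to 0.305 CPM per library. Epas1, Arnt2, Slc2a3, Cox4i2, Car9 and Angptl4 reached at most 0.508 CPM. Limits of this kind cover counting error only.

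Of the 19 tested glycolysis genes 8 rose, 0 fell and 11 did not pass, and leaving out wounded total replicate 1, 11 rose and 1 fell (Pgam1). Slc2a1, a glucose transporter, rose from 63.2 ± 6.7 to 108 ± 18.4 CPM (SD, n = 3), with a log2 fold change of 0.77 (SE 0.13) and an edgeR adjusted p of 8.07e-04. Hk1, the constitutive hexokinase, rose by 0.75 (SE 0.11) on the log2 scale, used for all such differences (edgeR adjusted p = 4.04e-04), beside -0.064 for its inducible paralog Hk2. Aldoc, an aldolase, rose from 23 ± 1.03 to 51.4 ± 4.62 CPM with a log2 fold change of 1.16 (SE 0.13, edgeR adjusted p = 2.80e-05). Pfkfb3, which makes the activator of phosphofructokinase, rose by 0.97 (SE 0.28, edgeR adjusted p = 0.0242). Pkm, pyruvate kinase, rose by 0.72 (SE 0.10, edgeR adjusted p = 1.45e-04), Pfkl by 0.50 and the main aldolase Aldoa by 0.49. Aldoa missed the threshold in 7, Pfkfb3 in 6 and Pfkl in 5 of 24 alternatives, and Slc2a1, Hk1, Aldoc and Pkm in 0. Further down the pathway, Pgam1 had a log2 fold change of -0.57 (SE 0.22) with an adjusted p of 0.0878, and Eno1 had 0.29 (SE 0.11) with 0.0945 in the same edgeR test. Both passed when wounded total replicate 1 was left out, Pgam1 lower (-1.02, SE 0.12, adjusted p = 8.21e-07) and Eno1 higher (0.38, SE 0.092, adjusted p = 0.00358, edgeR).

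**Figure D2:**
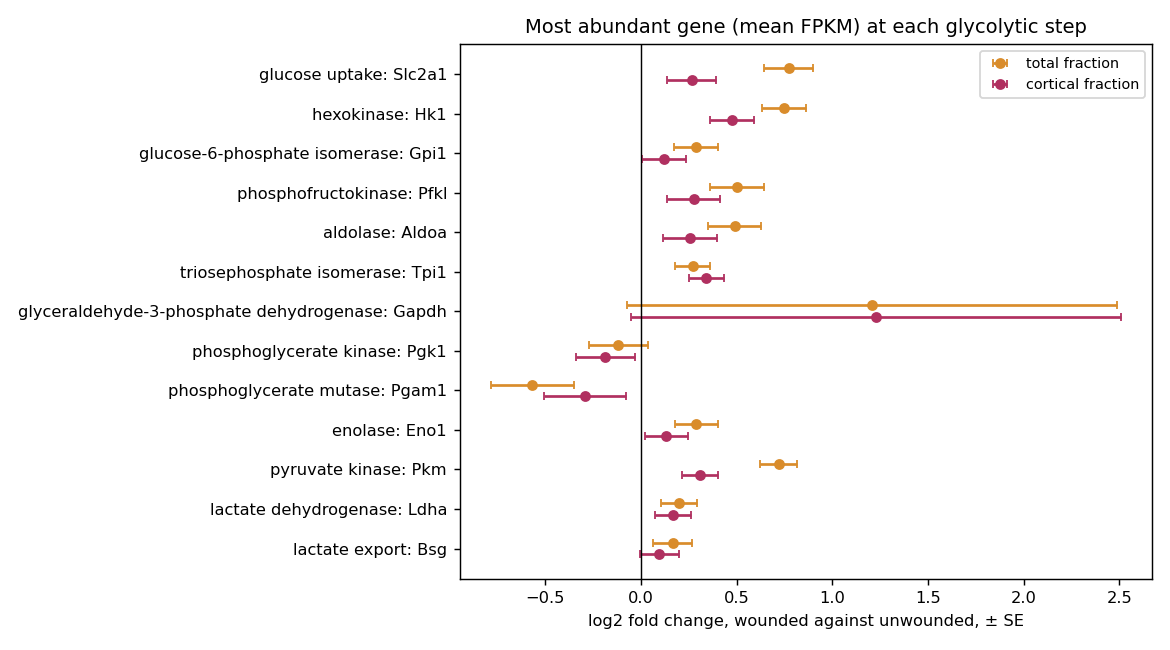
Log2 fold change from unwounded to wounded cells (horizontal axis, bars are SE) of the most abundant gene by FPKM at each of 13 glycolytic steps, from uptake at the top to lactate export, in the total and cortical fractions. Slc2a1 (0.77), Hk1 (0.75) and Pkm (0.72) have the highest total-fraction values among genes with narrow bars, Pgk1 and Pgam1 lie left of 0 in both fractions, and the wide bars of Gapdh reflect the spread between its libraries. Lactate export is drawn with Bsg alone (0.17 total, 0.096 cortical). The lactate transporter Slc16a1, not drawn and named outside the rule, had -0.31 (SE 0.25) and -0.62 (SE 0.25), and neither passed. Slc16a3, also listed at that step, reached at most 1.75 CPM.

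Of 26 tested genes among other HIF targets, 5 rose, 1 fell and 20 did not pass. Ndrg1, a stress and differentiation gene, had the largest increase, from 45.5 ± 6.28 to 157 ± 18.9 CPM (SD, n = 3), with a log2 fold change of 1.79 (SE 0.13) and an edgeR adjusted p of 4.22e-07. Ddit4, an inhibitor of mTOR signalling, rose by 0.78 (SE 0.09, edgeR adjusted p = 3.66e-05). Kdm4b, a histone demethylase, rose by 0.70 and Fam162a, a mitochondrial protein, by 0.55, whereas the demethylase Kdm3a fell with a log2 fold change of -0.81 (SE 0.23, edgeR adjusted p = 0.0227). Kdm3a missed the threshold in 5, Kdm4b and Fam162a in 3 each, and Ndrg1 and Ddit4 in 0 of 24 alternatives. The groups of Fam162a overlapped. Among 15 tested genes of pyruvate and mitochondrial metabolism, 3 rose and 1 fell. Pdk2, a sister kinase of Pdk1, rose from 6.28 ± 1.04 to 17.1 ± 3.06 CPM (log2 fold change 1.45, SE 0.22, edgeR adjusted p = 4.21e-04), and Pdk1 had 0.17. Higd1a, a hypoxia-inducible protein of the respiratory chain, rose by 1.16 (SE 0.18, edgeR adjusted p = 3.93e-04) and the mitochondrial protease Lonp1 by 0.49. Lonp1 missed the threshold in 4 of 24 alternatives, and Pdk2 and Higd1a in 0. The gene that fell was Mpc1, a pyruvate carrier subunit, named outside the rule, after its values were seen, as the 1 gene of its list to fall (edgeR adjusted p = 0.00712). It had 9.21, 4.57 and 5.07 CPM in the unwounded and 0, 1.4 and 0.552 CPM in the wounded total group.

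Ndufa4, the paralog of Ndufa4l2, had 336 ± 70.1 CPM in the unwounded total and 349 ± 51.3 CPM in the wounded total group (SD, n = 3), with a log2 fold change of 0.054 (SE 0.14) and an edgeR adjusted p of 0.848. Per length it was the more abundant of the pair, with 239 ± 48.1 FPKM against 5.85 ± 1.01 FPKM for Ndufa4l2 in the unwounded total group. In the wounded total group the values were 253 ± 36.6 and 40.7 ± 13.9 FPKM. Among 15 tested HIF regulators, 1 rose and 1 fell. Hif1an, the asparagine hydroxylase that inhibits HIF, rose by 0.53 (SE 0.13, edgeR adjusted p = 0.0132). The coactivator Ep300 fell with a log2 fold change of -0.95 (SE 0.24, edgeR adjusted p = 0.0142). Ep300 missed the threshold in 4 and Hif1an in 2 of 24 alternatives.

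**Figure D3:**
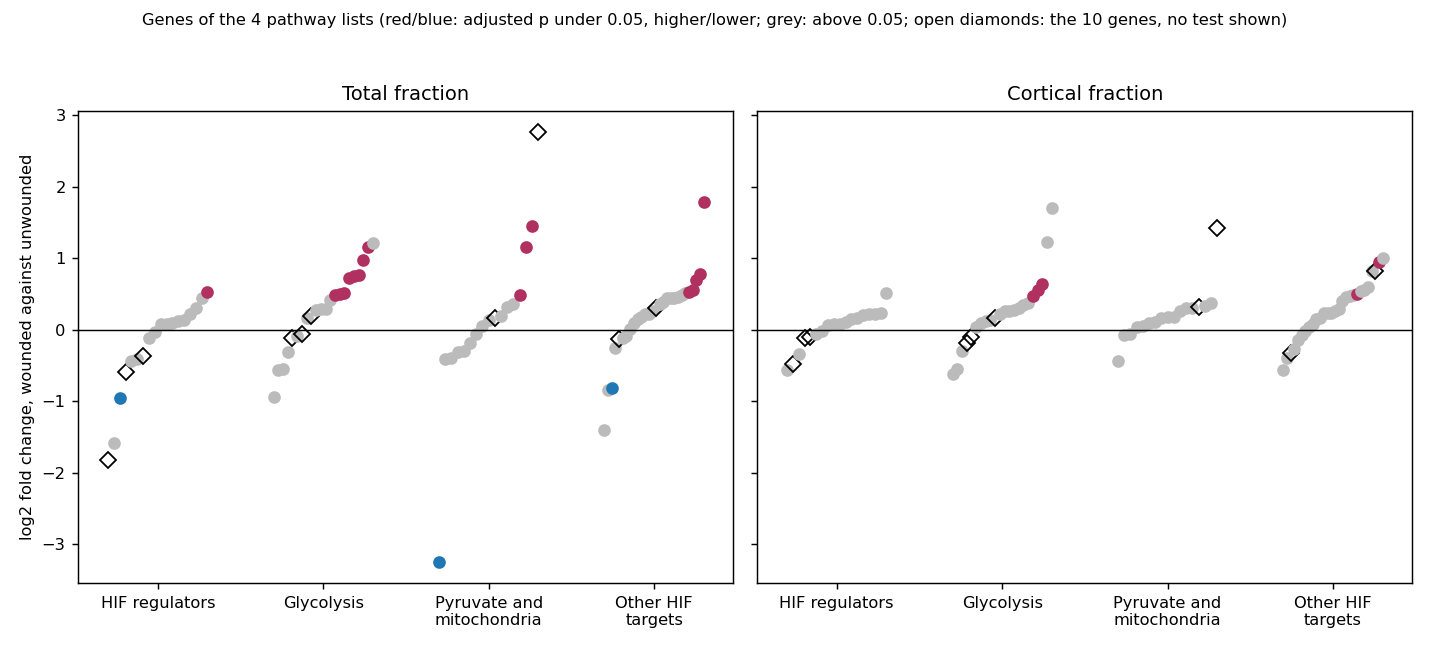
Log2 fold change from unwounded to wounded cells (vertical axis) of every tested gene of the 4 pathway lists in the total (left) and cortical (right) fraction, sorted within each list, where red and blue mark genes with an edgeR adjusted p under 0.05 and open diamonds the 10 genes of the set. In the total fraction 17 points are red and 3 are blue, in the cortical fraction 5 are red, and the highest diamond in both is Ndufa4l2.

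In the cortical fraction Ndufa4l2 again had the highest value of the 10 genes. It was higher after wounding by a fold of 2.67, with a log2 fold change of 1.42 (SE 0.22). Bnip3 had 0.83 (SE 0.29) and Pdk1 0.31 (SE 0.15), while Wsb1 had -0.48 (SE 0.19). The remaining 6 members lay between Vegfa and Ldha, with Ldha at 0.17 (SE 0.093), Vegfa at -0.32 (SE 0.25), Pgk1 at -0.19 (SE 0.15), Hif1a at -0.12 (SE 0.16), Hk2 at -0.11 (SE 0.22) and Egln3 at -0.10 (SE 0.10). As a description, 1 of the 10 members passed the threshold (Ndufa4l2), beside 2.48% of all genes (1.60% higher, 0.884% lower). Without wounded total replicate 1, which is in neither group compared here, 2 of 10 did, beside 9.07%. Groups did not overlap for 4 members that were higher and 2 that were lower, beside 15.4% and 11.5% of all genes, or 26.9% in all. The median log2 fold change was -0.10 over the 10 and 0.015 over all genes.

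Of the 75 other pathway genes 5 rose and 0 fell in the cortical fraction (edgeR, 6.67% against 2.48% of all genes), and their median log2 fold change was 0.20. With only the genes with a mean of 50 counts or more, 4.35% of all genes were called. When wounded total replicate 1 was left out 11 rose and 1 fell. The 5 were 3 glycolysis genes and 2 HIF targets, and all 5 also rose in the total fraction. That comparison used other libraries but was not independent, because neutravidin split the material into the 2 fractions and 1 fit covered both. They were Ndrg1 (0.94, SE 0.13, edgeR adjusted p = 8.12e-04), Aldoc (0.65, SE 0.13, edgeR adjusted p = 0.0132), Pfkp, a phosphofructokinase (0.56, SE 0.14, edgeR adjusted p = 0.0481), Ddit4 (0.50, SE 0.09, edgeR adjusted p = 0.00704) and Hk1 (0.48, SE 0.11, edgeR adjusted p = 0.0347). With library size alone as the scale 3 rose. Pfkp missed the threshold in 16, Hk1 in 12 and Aldoc in 4 of 24 alternatives, and Ndrg1 and Ddit4 in 0. In the list of HIF regulators 1 of 15 and in that of pyruvate and mitochondrial genes 3 of 15 had an unadjusted p under 0.05 and 0 passed with edgeR. An unadjusted p under 0.05 was found for 6 of 19 glycolysis genes and 9 of 26 other HIF targets, beside 17.3% of all genes.

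**Figure D4:**
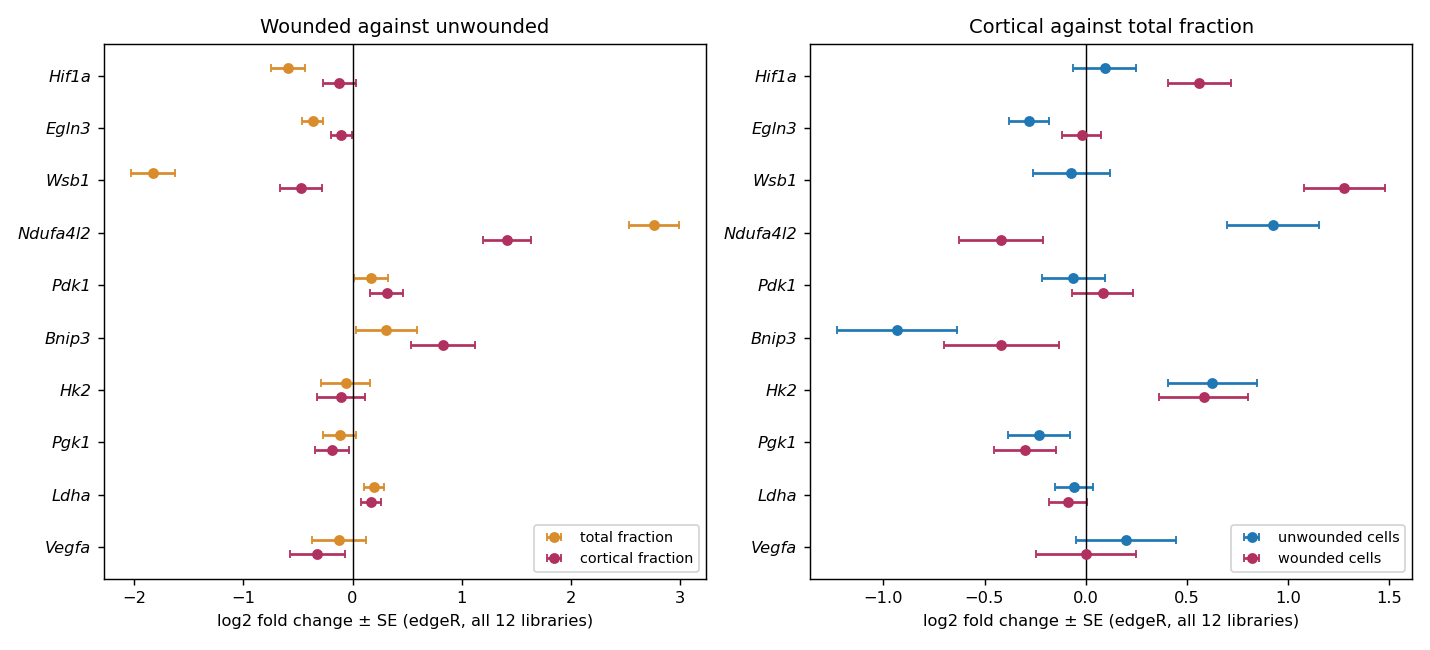
Log2 fold change (horizontal axes, bars are SE) of the 10 genes from unwounded to wounded cells in each fraction (left) and from the total to the cortical fraction in each treatment (right). Ndufa4l2 lies farthest right on the left panel in both fractions, and on the right panel Ndufa4l2 lies right of 0 in unwounded and left of 0 in wounded cells while Wsb1 lies right of 0 only in wounded cells.

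Without wounding, the cortical and total fractions were compared for mRNAs enriched near the desmoplakin fusion. Ndufa4l2 was higher in the cortical fraction, with a log2 fold change of 0.92 (SE 0.23), and Hk2 had 0.63 (SE 0.22). Bnip3 was lower, with -0.93 (SE 0.29), and Egln3 had -0.28 (SE 0.10). Hif1a (0.093), Wsb1 (-0.073), Ldha (-0.058) and Pdk1 (-0.061) were near 0, and Pgk1 had -0.23 (SE 0.15) and Vegfa 0.20 (SE 0.25). As a description, 2 of the 10 (Ndufa4l2 and Bnip3) passed the threshold, beside 14.2% of all genes (6.62% higher, 7.59% lower), and 4 of 10 without wounded total replicate 1, beside 22.4%. Groups did not overlap for 2 that were higher and 3 that were lower, beside 17.1% and 19.1% of all genes, or 36.2% in all. The median log2 fold change was -0.059 over the 10 and 0.0023 over all genes. Across the 13571 genes this ratio rose with gene length (Spearman rho 0.335 across genes, which are not replicates). Gene length here is the deposited length, which for Ndufa4l2 is a short 1095 bases, less than its span on the chromosome. With the length trend removed, Ndufa4l2 had 1.21 (SE 0.18), Hk2 had 0.55 (SE 0.22), Bnip3 -0.76 (SE 0.32) and Egln3 -0.15 (SE 0.092).

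Of the 75 other pathway genes 5 were higher and 8 lower in the cortical fraction of unwounded cells (edgeR, 17.3% against 14.2% of all genes), and 13 were higher and 7 lower when scaled by library size alone. With only the genes with a mean of 50 counts or more, 20.7% of all genes were called. Leaving out wounded total replicate 1, 10 were higher and 12 lower. Ep300 had 10.8 ± 1.05 CPM in the total and 24.8 ± 1.72 CPM in the cortical group (SD, n = 3), higher in the cortical one (log2 fold change 1.20, SE 0.23, edgeR adjusted p = 0.00283). Slc2a1 (0.81, SE 0.13, edgeR adjusted p = 7.59e-04), Ndrg1 (0.69, SE 0.13, edgeR adjusted p = 0.00198), the oxygen sensor Egln1 (0.41, SE 0.11, edgeR adjusted p = 0.0154) and Hk1 (0.39, SE 0.11, edgeR adjusted p = 0.0303) were also higher. Ndufa4 was lower, with 336 ± 70.1 CPM in the total and 203 ± 6.47 CPM in the cortical group (log2 fold change -0.73, SE 0.14, edgeR adjusted p = 0.00239), while its paralog Ndufa4l2 had 0.92. The other genes that were lower were the pyruvate carrier Mpc2 (-0.80), the cytokine Mif (-0.77), the VHL partner Elob (-0.69), Cox4i1 (-0.58), Tpi1 (-0.54), Bsg (-0.52) and Fam162a (-0.43). With the length trend removed 9 of the 13 passed, and Ndufa4, Elob, Fam162a and Hk1 did not. The counts were then 5 higher and 5 lower. Elob missed the threshold in 11 and Fam162a in 15 of 24 alternatives.

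In the cortical fraction of wounded cells Wsb1 was higher than in the total fraction by a fold of 2.42, with a log2 fold change of 1.28 (SE 0.20), and Hif1a had 0.56 (SE 0.16). Hk2 had 0.58 (SE 0.22), close to its value in unwounded cells. Ndufa4l2 had -0.42 (SE 0.21), and without wounded total replicate 1 it had -0.68 (SE 0.15). Bnip3 had -0.42 (SE 0.28) and Pgk1 -0.30 (SE 0.15), and without that library these were -0.11 (SE 0.28) and -0.041 (SE 0.10). Ldha (-0.087), Pdk1 (0.084), Egln3 (-0.019) and Vegfa (0.0012) were near 0, and leaving the library out Pdk1 had 0.19 (SE 0.16) and Vegfa -0.13 (SE 0.26). As a description, 2 of the 10 passed the threshold (Wsb1 and Hif1a), beside 15.7% of all genes (7.62% higher, 8.03% lower), and 3 of 10 without the library, beside 24.7%. Groups did not overlap for 3 that were higher and 1 that was lower, beside 16.2% and 12.9% of all genes, or 29.2% in all. The median log2 fold change was -0.0089 over the 10 and 0.042 over all genes, and with the length trend removed Wsb1 had 1.19 (SE 0.21), Hif1a 0.39 (SE 0.16) and Ndufa4l2 -0.16 (SE 0.16).

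Of the 75 other pathway genes 5 were higher and 12 lower in the cortical fraction of wounded cells (edgeR, 22.7% against 15.7% of all genes), and 13 were higher and 9 lower by library size alone. With only the genes with a mean of 50 counts or more, 22.2% of all genes were called. With wounded total replicate 1 left out 9 were higher and 17 lower. The lower ones included Higd1a (-1.21, SE 0.18, edgeR adjusted p = 5.58e-04), Mif (-1.08, SE 0.18, edgeR adjusted p = 9.94e-04), Ndufa4 (-0.68, SE 0.14, edgeR adjusted p = 0.00371) and Pdk2 (-0.74, SE 0.22, edgeR adjusted p = 0.0285). Of the VHL ubiquitin ligase, Elob (-0.90), Eloc (-0.87) and Rbx1 (-0.55) were lower, and Rbx1 missed the threshold in 9 of 24 alternatives. Its scaffold Cul2 had 0.24 (SE 0.10) with an edgeR adjusted p of 0.128, and Vhl had -0.0091 (SE 0.20) with 0.983. With the length trend removed 15 of the 17 genes passed, in a total of 3 higher and 16 lower. Ep300 was higher with 1.59 (SE 0.24, edgeR adjusted p = 7.00e-04), as were Kdm3a (0.71), Dlat, a pyruvate dehydrogenase subunit (0.54), Egln1 (0.38) and Mpc1. Kdm3a missed the threshold in 16 and Egln1 in 7 of 24 alternatives. Wounded cortical levels of Mpc1 were 3.63, 1.95 and 3.67 CPM.

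The difference between the 2 fraction ratios, wounded minus unwounded, asked whether wounding shifted mRNAs between fractions. It was -1.34 (SE 0.31) for Ndufa4l2 and 1.35 (SE 0.28) for Wsb1 on the log2 scale, the largest of the 10 in each direction. Bnip3 had 0.52 (SE 0.41), Hif1a 0.47 (SE 0.22) and Egln3 0.26 (SE 0.14). The other members had values from -0.20 (Vegfa) to 0.14 (Pdk1). As a description, 0 of the 10 passed the threshold, beside 0.125% of all genes (edgeR, 0.0221% higher and 0.103% lower). An unadjusted edgeR p under 0.05 was found for 3 of 10, beside 9.05% of all genes. DESeq2 called 2 of the 10, beside 0.531% of all genes. In the fit without wounded total replicate 1 Ndufa4l2 had -1.60 (SE 0.22) and Wsb1 1.47 (SE 0.28), and 2 of 10 passed, beside 2.93% of all genes. Bnip3 then had 0.82 (SE 0.38), Vegfa -0.32 (SE 0.34) and Pdk1 0.25 (SE 0.21).

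Of the 75 other pathway genes 0 were called for this difference with edgeR and 11 had an unadjusted p under 0.05. DESeq2 called 4 of them, beside 0.531% of all genes. Without wounded total replicate 1, edgeR called 10, 2 of them higher and 8 lower. Those lower were Pdk2 (-1.51, SE 0.31, adjusted p = 0.00923), Higd1a (adjusted p = 0.00106), Ndrg1 (-0.92, SE 0.16, adjusted p = 0.0022), Mif, Eloc, Fam162a, Pkm and Aldoa, and those higher were Pgam1 (0.73, SE 0.15, adjusted p = 0.0104) and Mpc1, all from edgeR. These names were taken after the values were seen.

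The 5 genes whose log2 CPM was most like that of Ndufa4l2 over the 12 libraries, by Pearson r among 11759 genes with a mean of at least 1 CPM, were Krt16 (0.981), Tns4 (0.979), Tollip (0.978), Chit1 (0.978) and Acadl (0.977). These values describe likeness over libraries that fall into 4 groups. Krt16, a keratin of stressed epidermis, had 169 ± 7.82 CPM in the unwounded total, 308 ± 10.9 in the unwounded cortical, 578 ± 91 in the wounded total and 569 ± 35.3 in the wounded cortical group (SD, n = 3). Of the other 9 members Ldha was the most like Ndufa4l2 (r = 0.76) and Wsb1 the least (r = -0.80).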

How the data were processed

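The authors deposited raw fragment counts per gene and FPKM values, 1 column per library. Per the submitters' processing notes, CASAVA, HISAT2 and build mm10 were used; the counting tool is not given in the sources used here. Each deposited FPKM equalled the count over gene length and a size that was constant within a library. Libraries were poly-A selected and not directional, per the labels. Groups and replicate numbers came from the titles, and 0 sample columns were left out.

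Counts were analysed with edgeR 4.0.16 in R 4.3.3: filterByExpr, TMM factors, a quasi-likelihood fit of the 4 group means to all 12 libraries, two-sided tests, Benjamini-Hochberg adjustment over 13571 genes, threshold 0.05. The SE is the log2 fold change over the root of F. P-values rest on the spread between the 3 libraries of a group, estimated jointly over all 4 groups. They do not rest on the 2 groups compared alone. The members and the 4 pathway lists (99 genes, from general knowledge) were chosen with earlier results of these data known. A symbol in 2 rows (Aldoa) was taken from the row with more counts. Named genes were the members, Ndufa4, up to 4 called genes per list, direction and comparison with a mean of at least 100 counts, the most abundant gene of each glycolytic step, and the 5 genes most like Ndufa4l2. Exon overlaps came from GENCODE M21 (GRCm38). Alternatives were scaling by library size, RLE or upper quartile, DESeq2 1.42.0, limma 3.58.1 on log2(FPKM + 1) and log2(FPKM + 0.1), genes unfiltered or with means of 50 counts or more, only the groups compared, the replicate block, a loess length trend (span 0.5) removed, and each library left out. Scripts were tested on simulated data. Same-numbered libraries deviated from their group means with correlations of -0.033 to 0.091 in 12 pairs, and the main fit did not take the numbers as pairing. These correlations cannot show that the fractions of a culture were unpaired, because deviations from a mean of 3 libraries also hold the noise of each library. The replicate block tied same-numbered libraries of all 4 groups, and pairing of the fractions alone was not tested. Figures used python 3.11.15 and matplotlib 3.10.9.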

Additional observations from a re-analysis of the deposited data

How the results depend on the processing

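Leaving out 1 library at a time gave 8 to 22 called pathway genes for cortical against total in unwounded cells (13 with all libraries), 12 to 26 in wounded cells (17), 13 to 34 for wounding in the total fraction (20), 2 to 12 in the cortical fraction (5) and 0 to 10 for the difference of the fraction ratios (0). Each highest count came without wounded total replicate 1. Of all genes these fits called 6.69% to 22.4%, 7.66% to 24.7%, 7.99% to 24.9%, 0.767% to 9.07% and 0.0284% to 2.93%, in that order. A fit restricted to the compared groups gave 23, 10, 11 and 19 in the order of the first 4 comparisons. Of all genes it called 23.7%, 7.66%, 9.25% and 11.3%. Library size scaling gave 20 in the first and 3 in the fourth comparison (15.1% and 1.47% of all genes). It shifted the median of all genes by 0.187 and 0.211 in the 2 fraction comparisons. With the length trend removed 31 genes were called for wounding in the total fraction and 2 for the difference of ratios. Beside these, 19% and 0.221% of all genes were called. The count for the difference of ratios was 1 with the replicate block added. DESeq2 gave 8 in the fourth comparison and 4 for the difference of ratios (5.42% and 0.531% of all genes). With no filter the latter was also 4 (0.638%). With the replicate block alone the counts were 15, 16, 20, 4 and 0 (13.7%, 14.6%, 15%, 2.03% and 0.0737% of all genes). The cause of these shifts was not tested. All called pathway genes kept their sign under library size scaling, DESeq2, the block and without wounded total replicate 1. Sign is a weak check for genes chosen by their call, and not all calls held. With library size scaling 12 of 13, 14 of 17, 13 of 20 and 3 of 5 still passed in the first 4 comparisons. In the fit restricted to the compared groups 13, 10, 11 and 5 of them did. The log2 fold change of Ndufa4l2 from unwounded to wounded cells stayed within 2.55 to 3.02 in the total and 1.33 to 1.47 in the cortical fraction in 24 alternatives, and that of Wsb1 within -1.95 to -1.33 and -0.63 to -0.29. Bnip3, Vegfa and Hk2, with 48 to 457 counts per library, had the fewest counts of the set and among its widest errors.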

Other observations

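Gapdh, the enzyme between triosephosphate isomerase and phosphoglycerate kinase and a common reference gene, varied widely between libraries of the same group. It had 31.1, 1299.6 and 52.3 CPM in replicates 1 to 3 of the unwounded total, 778, 648 and 29.3 CPM in the unwounded cortical, 16, 918 and 2262 CPM in the wounded total and 1429, 1353 and 636 CPM in the wounded cortical group. Its count ran from 270 to 36904 per library, while the 5 pseudogene copies named in the table held at most 10 counts in any library. The neighbouring enzymes were steady by comparison: Tpi1 had 727, 735 and 718 CPM and Pgk1 1020.0, 848 and 850.3 CPM in the same unwounded total libraries. The log2 fold change of Gapdh with wounding in the total fraction was 1.21 (SE 1.28), with an edgeR adjusted p of 0.597.

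Among further HIF targets, Car9 and Angptl4 had 47 and 11 counts in all 12 libraries together and were not tested. Adm, the secreted peptide adrenomedullin, had 1.86 ± 0.51 CPM in the unwounded total and 1.88 ± 0.272 CPM in the wounded total group (SD, n = 3), and Vegfa had 8.91 ± 2.37 and 8.18 ± 1.43 CPM. Bnip3l, the relative of Bnip3, had 49.7 ± 7.16 and 64.7 ± 22.3 CPM, with a log2 fold change of 0.38 (SE 0.20) and an edgeR adjusted p of 0.229. Without wounded total replicate 1 it was higher after wounding (0.64, SE 0.14, adjusted p = 0.00126, edgeR). Adm, Bnip3l, Car9 and Angptl4 were singled out after their values were seen.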
